A study of Mus musculus with 2 samples.

Results

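H3K36me3 on the genes of the aminoacyl-tRNA synthetases, the enzymes that load each tRNA with its amino acid, was examined in mouse primary keratinocytes (KCs). The genes were chosen by name, 20 for the cytosolic enzymes and 16 for the mitochondrial ones, 36 of the 21938 protein-coding genes of the GENCODE vM21 annotation on GRCm38. A peak was counted for a gene if the deposited annotation named that gene for it, which is called credited here, or if at least 1 bp of it lay between the annotated start and end of the gene, which is called the body. By this rule 139 of the 45575 peaks belonged to the synthetase genes, and 128 of them lay on a body.

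The study asked what loss of the H3K36 methyltransferase Setd2 in the epidermis does to the skin, and its ChIP-seq part had 1 H3K36me3 library and 1 input library. Both came from primary KCs of 10-week-old C57BL/6 mice with the Setd2 fl/fl genotype, in which the Setd2 alleles carry loxP sites but are not deleted. The labels name no Cre for these samples, so they hold only the floxed control state and no Setd2-deficient cells. KCs were taken from skin by dispase and trypsin, and no sort was named, so the library holds whatever epidermal cells those steps released, and the number of mice behind it was not given in the sources used here. Only the peak table of the H3K36me3 library was used. Every value below therefore comes from 1 library, with no replicate error and no test, and differences are descriptions of this library. Sequencing depth was not given in the sources used here, so no limit of detection can be set for a gene without a peak.

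SETD2 travels with elongating RNA polymerase II and adds the trimethyl mark to lysine 36 of histone H3, so the mark is known to lie over the bodies of transcribed genes and to be weak at their starts. Aminoacyl-tRNA synthetases are needed in every cell that makes protein. The cytosolic and mitochondrial enzymes of most amino acids are made from separate nuclear genes, while Kars and Gars each supply both compartments. The enzymes fall into class I and class II by the fold of their catalytic domain, and in mammals a set of the cytosolic enzymes is held in a multi-synthetase complex.

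The cell type label was checked against marker genes. All 10 keratinocyte markers carried a peak on the body, with a median of 91.8% of the body inside peaks, and 7 of them were covered over at least 50%. Krt14 and Krt5 reached 89.9% and 96.0%, while Itga6, Krt1 and Trp63 had 41.2%, 40.7% and 40.4%. None of 6 fibroblast markers had a peak, and 1 of 4 endothelial markers had one, over 0.275% of Pecam1. Peaks touched 2 of 5 immune markers and 2 of 5 melanocyte markers, with highest covered shares of 10.2% and 15.3%. No marker of the other cell types was covered over at least 50%.

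The cytosolic genes were marked almost throughout, and the mitochondrial genes much less so. A peak lay on the body of 20 of 20 cytosolic and 15 of 16 mitochondrial genes, where 51.4% of all protein-coding genes had one. The covered share, the percent of the body inside peaks, had a median of 82.2% (68.6% to 94.7%) over the cytosolic genes and of 48.9% (0% to 82.0%) over the mitochondrial genes. Among genes with a peak only, the median was 82.2% for the 20 cytosolic, 53.7% for the 15 mitochondrial and 46.4% for all protein-coding genes, so the mitochondrial genes lay closer to marked genes in general than the cytosolic genes did. At least 50% of the body was inside peaks in 20 of 20 cytosolic and 8 of 16 mitochondrial genes, against 23.8% of all protein-coding genes. The groups overlapped little. Of the 20 cytosolic genes, 11 lay above every mitochondrial gene, and 14 of the 16 mitochondrial genes lay below every cytosolic gene. Among all protein-coding genes, the least covered cytosolic gene was at percentile 86.8 and the most covered mitochondrial gene at percentile 94.6. A place below every cytosolic gene was thus about as common among all protein-coding genes as among the mitochondrial ones. Ranked among all protein-coding genes by covered share, the median percentile was 94.7 for the cytosolic genes and 75.8 for the mitochondrial genes.

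**Figure D1:**
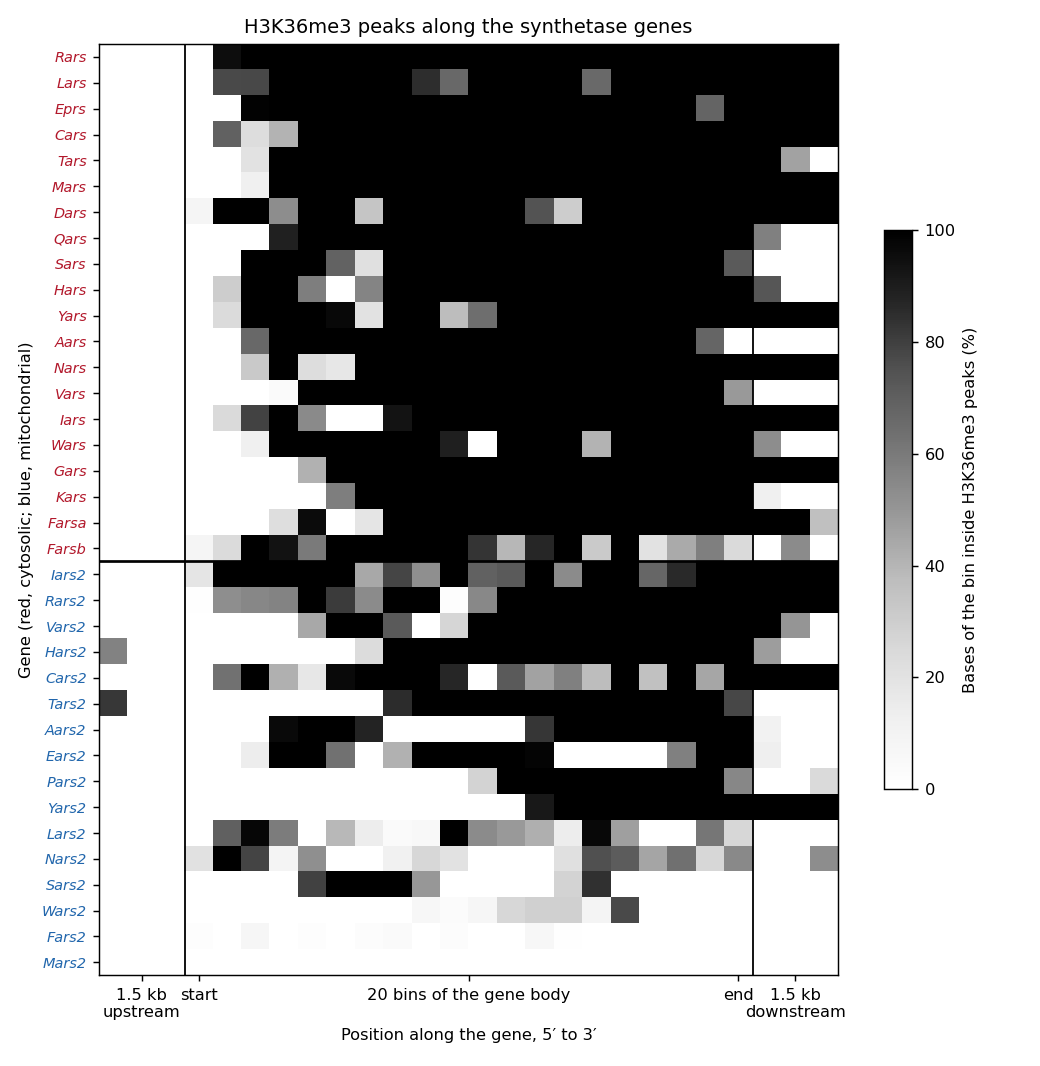
Share of bases inside H3K36me3 peaks (white 0%, black 100%) in 20 equal bins of each gene body and in 3 bins of 500 bp on either side, 5′ to 3′, for the 20 cytosolic (red) and 16 mitochondrial (blue) synthetase genes, each group ordered by covered share. Cytosolic bodies are dark nearly throughout, with white at the start, while Lars2, Nars2, Sars2, Wars2 and Fars2 show scattered bins and Mars2, at 0%, shows none.

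The groups had like median lengths but different extremes. The median was 25323.5 bp for the cytosolic and 25141 bp for the mitochondrial genes, with ranges of 8236 to 70923 bp for the cytosolic and 4214 to 608869 bp for the mitochondrial genes. Of the 11664 protein-coding genes within the cytosolic range, 61.4% had a peak and 32.9% were covered over at least 50%, and those with a peak had a median covered share of 52.9%. The 10 mitochondrial genes within that range had a median of 64.1%, or 65.0% over the 9 with a peak. Of the 10, 8 were covered over at least 50%. The gap to the cytosolic median of 82.2% was smaller in this subset and still present. These 10 genes had a median length of 17117 bp, below the cytosolic median, so the cut gave a common range without matching lengths. Whether length bears on the gap was not tested. Within a group, length and covered share were weakly related (Spearman rho 0.13 over 20 cytosolic genes and -0.13 over 16 mitochondrial genes, all from the same library). The number of exons in the main transcript had a rho with covered share of 0.33 over the 20 cytosolic genes and of 0.65 over the 16 mitochondrial genes, and the difference between these was not tested.

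**Figure D2:**
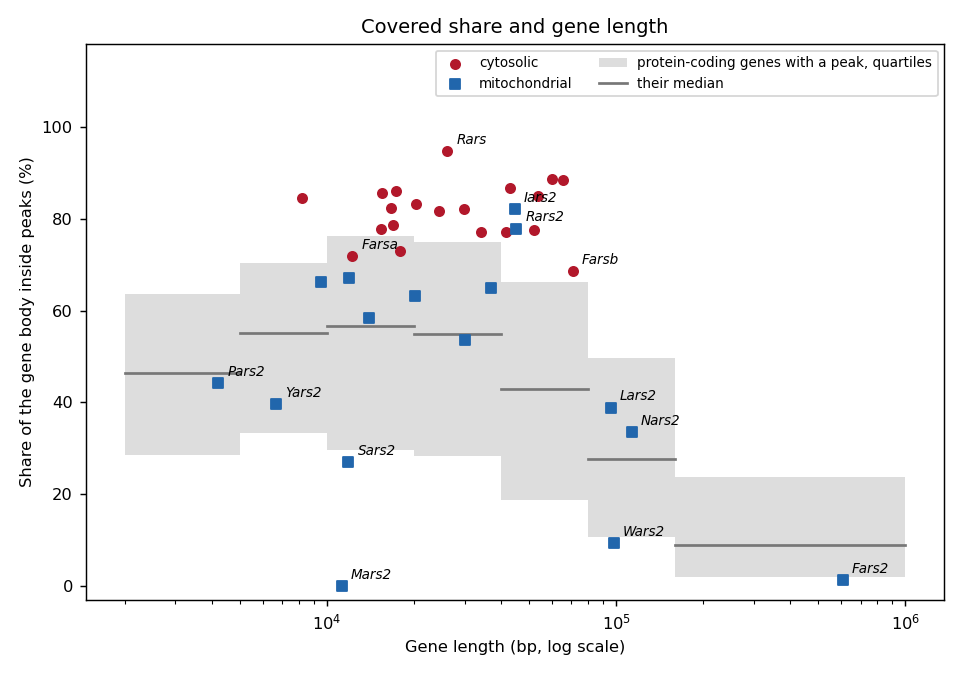
Covered share of the body (%) against gene length (bp, log scale) for each cytosolic (red circles) and mitochondrial (blue squares) synthetase gene, over the quartiles (grey bands) and medians (grey lines) of all protein-coding genes with a peak in bins of length. All 20 cytosolic genes lie above the median of their bin, whereas the mitochondrial genes lie on both sides of it, and Sars2, Wars2, Fars2 and Mars2 fall below the band of their bin.

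No peak reached the promoter windows that were found for these genes. Promoter sequences from RefSeq (GRCm38.p6, 250 bases before to 50 after the transcript start) were found for 12 cytosolic and 14 mitochondrial genes, in 27 windows, and 0 of the 27 held a base of a peak, against 2.38% of all 32851 promoter windows. At a background of 2.38%, a count of 0 of 27 does not set the synthetase genes apart. Cars, Hars, Lars, Mars, Nars, Rars, Vars, Wars, Hars2 and Pars2 were not matched. Synthetase genes are known targets of ATF4, a transcription factor of the amino acid and stress response that acts through C/EBP-ATF response elements. The core of that element, TGATGNAA, was searched on both strands, and it reads TTNCATCA on the other one. It was found in 4.51% of all 27025 genes with a promoter window and in 3.97% of all promoter windows. Among the synthetases it was found in 0 of the 14 mitochondrial genes, near that background, and in 5 of the 12 cytosolic genes. The windows of these 5 genes are shown because they hold this element and lie at the unmarked start of genes whose bodies are marked, with the matches in capitals. A match is a stretch of letters and not a measured binding site.
Aars: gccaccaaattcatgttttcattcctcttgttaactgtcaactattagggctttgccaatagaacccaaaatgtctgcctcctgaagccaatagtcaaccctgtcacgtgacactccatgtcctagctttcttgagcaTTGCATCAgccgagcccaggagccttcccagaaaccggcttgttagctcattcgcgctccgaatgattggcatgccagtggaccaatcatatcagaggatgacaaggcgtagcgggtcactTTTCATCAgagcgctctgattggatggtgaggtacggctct
Gars: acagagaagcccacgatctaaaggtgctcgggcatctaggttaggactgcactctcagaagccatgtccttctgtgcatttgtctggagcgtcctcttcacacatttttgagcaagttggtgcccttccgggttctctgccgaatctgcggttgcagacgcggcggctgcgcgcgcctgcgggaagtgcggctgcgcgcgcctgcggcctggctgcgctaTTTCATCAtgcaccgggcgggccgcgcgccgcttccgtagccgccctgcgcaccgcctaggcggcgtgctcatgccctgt
Iars: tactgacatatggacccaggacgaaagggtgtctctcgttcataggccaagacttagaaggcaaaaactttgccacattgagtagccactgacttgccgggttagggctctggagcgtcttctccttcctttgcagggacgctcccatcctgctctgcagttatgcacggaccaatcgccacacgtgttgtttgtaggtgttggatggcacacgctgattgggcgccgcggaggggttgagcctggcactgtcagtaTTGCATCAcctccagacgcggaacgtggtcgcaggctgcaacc
Tars: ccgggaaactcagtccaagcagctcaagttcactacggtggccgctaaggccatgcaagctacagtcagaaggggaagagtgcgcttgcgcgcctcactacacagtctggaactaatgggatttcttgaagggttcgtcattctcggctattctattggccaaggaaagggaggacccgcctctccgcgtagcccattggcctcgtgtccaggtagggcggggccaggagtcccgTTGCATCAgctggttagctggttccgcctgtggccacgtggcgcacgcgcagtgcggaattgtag
Yars: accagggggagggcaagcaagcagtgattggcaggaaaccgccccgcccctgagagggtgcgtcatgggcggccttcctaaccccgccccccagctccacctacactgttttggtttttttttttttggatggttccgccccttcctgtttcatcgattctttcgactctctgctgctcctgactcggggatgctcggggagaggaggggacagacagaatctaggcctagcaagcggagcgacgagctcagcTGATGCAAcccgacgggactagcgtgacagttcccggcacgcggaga
The windows are chr8:111033592-111033891 on the plus strand for Aars, chr6:55037751-55038050 (plus) for Gars, chr13:49681880-49682179 (plus) for Iars, chr15:11399609-11399908 (minus) for Tars and chr4:129189653-129189952 (plus) for Yars, each written 5′ to 3′ along the gene. Aars held a match that began 112 bases before the start and another 9 bases after it. The matches began 30 bases before the start in Gars, 15 before it in Tars, 7 after it in Iars and 3 after it in Yars. On the bodies of these genes the first peak began further in, 2861 bp into the annotated gene in Aars, 9520 bp in Gars, 3771 bp in Iars, 2432 bp in Tars and 2635 bp in Yars. These distances run from the GENCODE gene start, whereas the match positions run from the RefSeq transcript start. In Aars the first peak began 2103 bp into the main GENCODE transcript.

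The cytosolic genes of the multi-synthetase complex were marked over most of their length. The 8 genes had a median covered share of 85.3%, against 80.1% for the 12 other cytosolic genes, and the ranges overlapped. Rars, for arginine, was the most covered synthetase gene of all at 94.7%. Its body (chr11:35808381-35834506, minus strand, 15 exons) lay under 1 peak of 26652 bp, chr11:35806483-35833134, with a fold enrichment of 3.51. Fold enrichment is the ChIP signal of a peak over the local background that the authors' peak caller estimated. Lars, for leucine, followed at 88.6% with 4 peaks of 2306 to 19844 bp and folds of 2.94 to 3.41. Eprs, which encodes the glutamate and proline activities in 1 protein, was covered over 88.4% of chr1:185363044-185428360. Its peak of 53300 bp, chr1:185369603-185422902, was the widest on any synthetase gene (fold 3.41), and a neighbouring peak of 6338 bp (fold 3.56) ran 1928 bp past the gene end.

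Mars, for methionine, had the highest fold of any synthetase gene, 3.88, in a peak of 16421 bp that covered 85.6% of the body. That peak also lay on Ddit3, the overlapping gene for the stress factor CHOP, and the table does not divide a peak between genes. Qars, for glutamine, is the shortest cytosolic member at 8236 bp and was covered over 84.4% by 1 peak of 7244 bp (fold 3.58). Dars, for aspartate, reached 85.0% through 5 peaks with a highest fold of 3.32. Iars, for isoleucine, reached 77.5%, mostly through a peak of 35256 bp (fold 3.65). Kars, for lysine, was the least covered gene of the complex at 72.9%, and its 1 peak of 13100 bp (chr8:111993383-112006482, fold 3.65) began 4841 bp into the gene. Kars lies head to head with Terf2ip, a telomere protein gene, whose start is within 1000 bp of its own.

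Outside the complex, the class I genes Cars, Yars, Vars and Wars were covered over 86.6%, 82.1%, 77.7% and 77.1%. Cars, for cysteine, owed nearly all of this to 1 peak of 37799 bp, chr7:143554125-143591923 (fold 3.53), beside peaks of 943 and 1481 bp with folds of 3.10 and 2.79. In Yars, for tyrosine, the strongest peak (20609 bp, fold 3.50) ran 6221 bp past the gene end, the furthest of the cytosolic genes, onto C77080. Vars, for valine, lay under 1 peak of 11910 bp with a fold of 3.45. Wars, for tryptophan, encodes the cytosolic enzyme known to be induced by interferon, and here it had the lowest leading fold of the cytosolic group. Its 3 peaks of 9033, 5584 and 11971 bp had folds of 3.01, 3.01 and 2.96, and its highest −log10 P of 4.04 was the lowest of the 20 cytosolic genes, whose median was 5.43.

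Among the class II genes outside the complex, Tars (threonine) and Sars (serine) were covered over 86.0% and 83.1%, Hars (histidine) and Aars (alanine) over 82.3% and 81.7%, and Nars (asparagine) over 78.6%. Tars lay under 1 peak of 15662 bp, chr15:11381572-11397233, with a fold of 3.85, and Aars under 1 of 20033 bp with a fold of 3.79. These were the next highest folds after Mars. Gars, for glycine, was covered over 77.1% by a peak of 33943 bp (chr6:55047527-55081469, fold 3.47) that began 9520 bp into the gene, the latest start among the cytosolic genes. The genes for the subunits of the phenylalanine enzyme were the least covered cytosolic members. Farsa, the alpha subunit gene, had peaks of 725 bp (fold 2.65) and 9268 bp (fold 3.72) and a covered share of 71.8%. Farsb, the beta subunit gene, reached 68.6% over 70923 bp through 9 peaks of 299 to 22802 bp, with folds of 2.56 to 3.44. The longer subunit gene thus carried its mark in pieces and the shorter one nearly in 1 block.

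**Figure D3:**
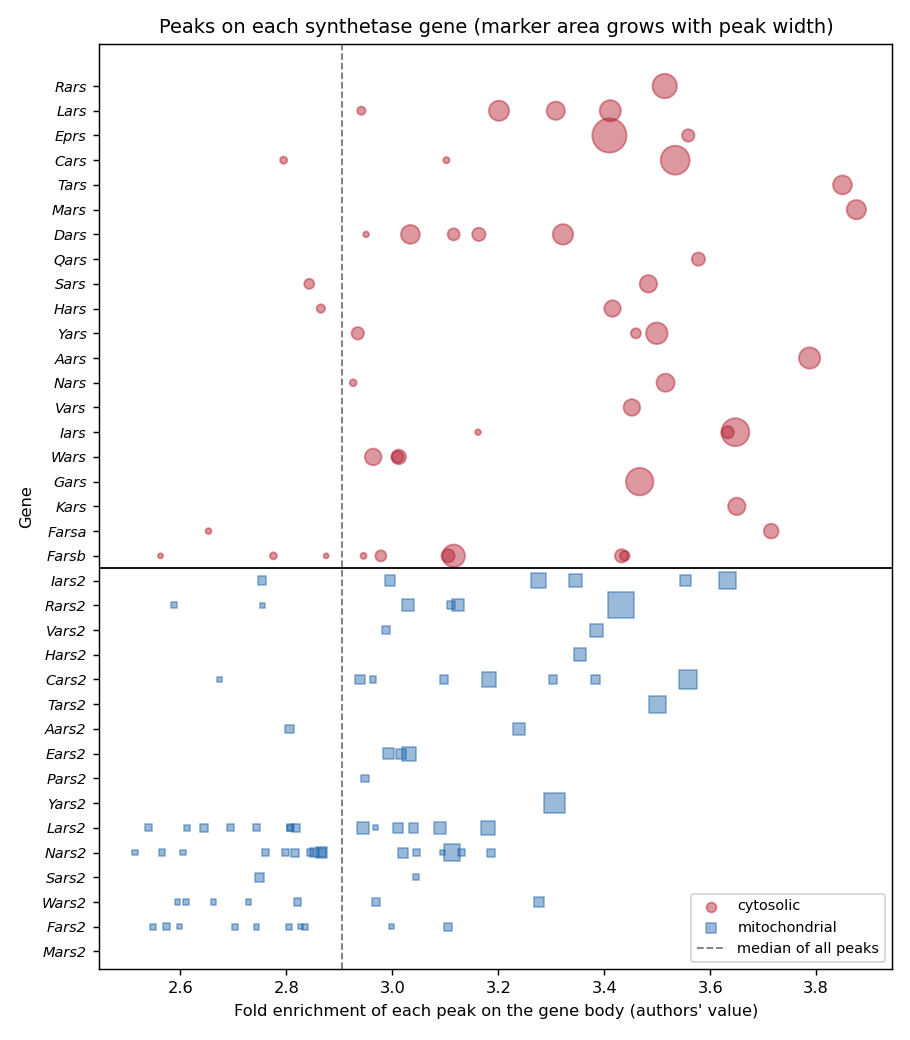
Fold enrichment of every peak on each synthetase gene body (authors' value, x axis), with marker area growing with peak width, for cytosolic genes (red circles, upper rows) and mitochondrial genes (blue squares, lower rows), and the median of all peaks, 2.90, as a dashed line. Wide peaks at high fold are common in the upper rows, led by Mars at 3.88 and Tars at 3.85, while Nars2, Lars2, Wars2 and Fars2 carry many narrow peaks below the line.

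Among the mitochondrial genes, 8 were covered over at least 50% of the body, and Iars2 and Rars2 were the only ones whose share reached the cytosolic range, at 82.0% and 77.8%. Iars2, for isoleucine, had 6 peaks of 2196 to 12566 bp with folds of 2.75 to 3.63, and 3.63 was the highest fold on a mitochondrial member. The deposited annotation credited 3 of these 6 peaks to the antisense transcript 2010103J01Rik and 1 to Mir215, a microRNA gene. Rars2, for arginine, had 6 peaks, and the widest (30739 bp, chr4:34639284-34670022, fold 3.43) ran 9855 bp past its end onto Slc35a1. That was the widest peak on a mitochondrial member, and 67.9% of it lay on Rars2.

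Vars2 (valine), Hars2 (histidine), Cars2 (cysteine), Tars2 (threonine), Aars2 (alanine) and Ears2 (glutamate) were covered over 67.1%, 66.2%, 65.0%, 63.2%, 58.4% and 53.7%. Vars2 had peaks of 6889 bp (fold 3.38) and 1887 bp (fold 2.99), with most of their bases towards its 3′ end. Hars2 had 1 peak of 6561 bp (fold 3.35), and its start lies head to head with that of Hars, so that the genes for the histidine enzymes point away from each other. The peak of 2409 bp (fold 2.87) just inside Hars was credited to Hars2, although it lies upstream of it, and was not counted for the Hars2 body. Cars2 had 8 peaks with folds of 2.67 to 3.56, but 16.3% of the strongest (14913 bp) lay on Cars2 and it was credited to Naxd, the neighbouring gene it also overlapped. Tars2 had a peak of 12778 bp (fold 3.50) that began 7230 bp into the annotated gene and 1895 bp into its main transcript. Aars2 had a highest fold of 3.24 over 2 peaks and Ears2 of 3.03 over 3 peaks.

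The remaining 8 mitochondrial genes were covered over less than 50%. Pars2 (proline) and Yars2 (tyrosine), the shortest members at 4214 and 6676 bp, reached 44.1% and 39.6%. The Pars2 peak of 1860 bp had a fold of 2.95, the lowest leading fold of any marked synthetase gene, and lay wholly on the 3′ side of the gene midpoint. The Yars2 body held 2642 bp of an 18533 bp peak (chr16:16306999-16325531, fold 3.31), 14.3% of it, and the peak was credited to Dnm1l, the mitochondrial fission gene next to it. Sars2, for serine, was covered over 27.0% by peaks of 2548 bp (fold 2.75) and 664 bp (fold 3.05), and its last peak ended 3064 bp before the gene end. Sars2 starts head to head with Mrps12, a mitochondrial ribosomal protein gene.

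The long mitochondrial genes carried many narrow peaks. Lars2, for leucine, was covered over 38.9% of 95740 bp by 14 peaks of 302 to 7497 bp with folds of 2.54 to 3.18. Nars2, for asparagine, had the most peaks of any member, 16, of 452 to 11286 bp and folds of 2.52 to 3.19, and they covered 33.6% of 113254 bp. Protein-coding genes of 80000 to 160000 bp with a peak had a median covered share of 27.6%, so both lay above the median of their length bin. Wars2, for tryptophan, was covered over 9.33% of 98119 bp, below the lower quartile of 10.7% in the same bin. Its 7 peaks of 278 to 3914 bp had folds of 2.60 to 3.28, and the first began 41927 bp into the gene. Its exons were covered over 41.9% and its introns over 7.23%.

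Fars2, for phenylalanine, is the longest synthetase gene at 608869 bp (chr13:36117412-36726280) and was covered over 1.29%. Its 10 peaks were 324 to 1849 bp wide with folds of 2.55 to 3.11, and the last ended 187538 bp before the gene end. Protein-coding genes of 160000 to 1000000 bp with a peak had a median of 8.90%, and Fars2 lay below it and below the lower quartile of that bin. Mars2, for methionine, was the only synthetase gene with no peak. Its annotated body (chr1:55237177-55248470, plus strand) has 1 exon, and no peak lay within 50000 bp of it. The nearest, chr1:55142701-55159392 (16692 bp, fold 3.68), was 77785 bp away on Mob4. The missing peak means that the authors' peak list holds none there, and the signal itself was not analysed here.

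Set side by side for the same amino acid, the cytosolic gene had the higher covered share in 16 of 17 pairs, with Eprs set against both Ears2 and Pars2, and both Farsa and Farsb against Fars2. The difference, cytosolic minus mitochondrial, had a median of 42.5 percentage points. It was greatest for Mars and Mars2 (85.6% and 0%), followed by Farsa and Fars2 (71.8% and 1.29%) and by Wars and Wars2 (77.1% and 9.33%). It was smallest among the positive ones for Vars and Vars2 (77.7% and 67.1%), Hars and Hars2 (82.3% and 66.2%) and Rars and Rars2 (94.7% and 77.8%). Iars and Iars2 were the exception, at 77.5% and 82.0%, a difference of -4.48 points. The highest fold on the body was greater for the cytosolic gene in 14 of the 16 pairs that had a fold on both sides, with a median difference of 0.28. The 2 exceptions were Wars and Wars2 (3.01 and 3.28) and Cars and Cars2 (3.53 and 3.56), and the Cars2 value is that of the peak it shares with Naxd. In some pairs the covered share differed and the fold hardly did, as for Hars and Hars2 (3.42 and 3.35) and for Vars and Vars2 (3.45 and 3.38).

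**Figure D4:**
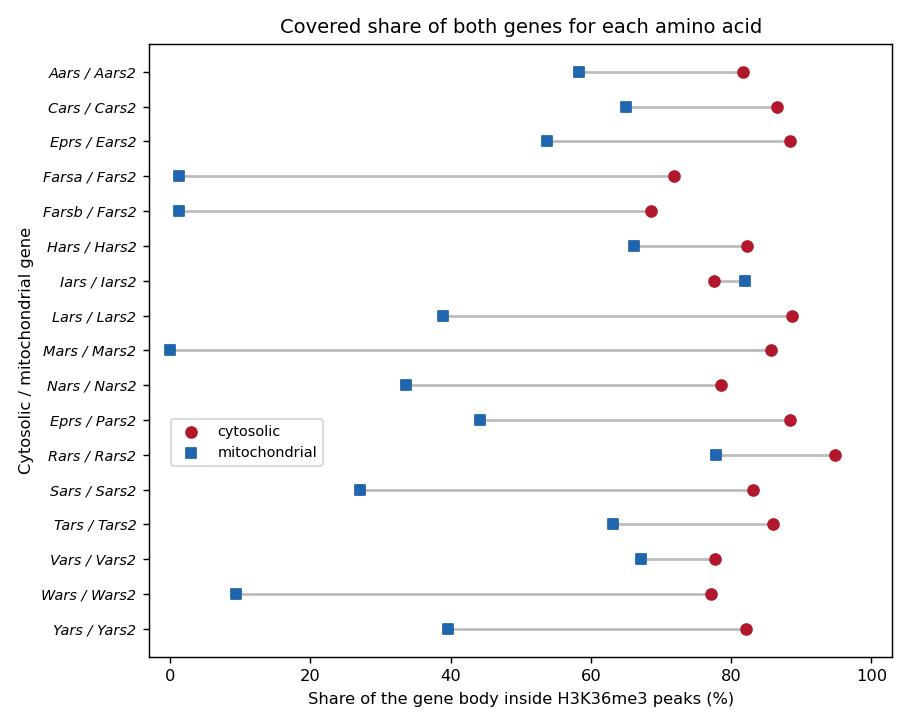
Covered share of the gene body (%) for the cytosolic gene (red circle) and the mitochondrial gene (blue square) of each amino acid, joined by a grey line, in 17 pairs. The red circle lies to the right in 16 pairs, by up to 85.6 points for Mars and Mars2, and to the left only for Iars and Iars2.

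Peak widths lay further apart between the groups than folds did. The 48 peaks on cytosolic bodies had a median width of 7335 bp and the 80 on mitochondrial bodies a median of 2044.5 bp, where the median of all 45575 peaks was 1614 bp. Peaks over 10000 bp numbered 21 of the 48 on cytosolic and 6 of the 80 on mitochondrial bodies, against 10.1% of all peaks. Peaks occupied 523123 of 641644 bp of cytosolic bodies (81.5%) and 247248 of 1162534 bp of mitochondrial bodies (21.3%). Fars2 alone moved that last share, which was 43.2% without it (239367 of 553665 bp, a choice made after seeing the data). The highest fold per gene had a median of 3.51 (3.01 to 3.88) over cytosolic and of 3.28 (2.95 to 3.63) over the 15 marked mitochondrial genes, and of 3.36 over all protein-coding genes with a peak. A peak with P below 1e-05 lay on 18 of 20 cytosolic and 4 of 16 mitochondrial genes, against 24.6% of all protein-coding genes, so the mitochondrial share was near the background. The cytosolic genes without one were Dars and Wars, and the mitochondrial genes with one were Cars2, Iars2, Rars2 and Tars2. In Rars2 it was the peak that runs onto Slc35a1, and in Cars2 the stronger of 2 such peaks was that shared with Naxd.

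Along the gene, the mark began after the start and in most genes lasted to the end. The first peak began over 1000 bp past the annotated start in 35 of 35 marked synthetase genes, close to the 94.9% of protein-coding genes with a peak. The median distance was 2553.5 bp for the cytosolic genes and 3232 bp for the mitochondrial genes, against 3873 bp for those protein-coding genes. More than 50% of the peak bases lay on the 3′ side of the midpoint in 19 of 20 cytosolic and 12 of 15 mitochondrial genes, against 86.3%. The exceptions were Farsb (42.7%) in the cytosolic group and Cars2 (45.6%), Fars2 (27.8%) and Sars2 (20.7%) in the mitochondrial group. The last peak ran past the annotated end in 16 of 20 cytosolic and 8 of 15 mitochondrial genes, against 60.7%. In the other cytosolic genes, Aars, Farsb, Sars and Vars, it ended 1627, 2507, 288 and 390 bp before the gene end.

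Averaged over marked genes of 5000 bp or more, the first of 20 body bins was 0.815% covered in 20 cytosolic genes, 2.97% in 14 mitochondrial genes and 3.73% in 10299 protein-coding genes. The mean passed 50% in bin 3 for the cytosolic genes, in bin 12 for the mitochondrial genes and in bin 11 for the protein-coding genes. At bin 10 the means were 94.7% for cytosolic, 45.8% for mitochondrial and 49.4% for protein-coding genes, and at bin 16 every cytosolic gene was covered throughout. The mitochondrial curve thus ran near that of marked genes in general, and the cytosolic curve rose early and stayed high. In the last 500 bp bin after the gene end the means were 51.8% for cytosolic, 32.4% for mitochondrial and 38.4% for protein-coding genes.

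**Figure D5:**
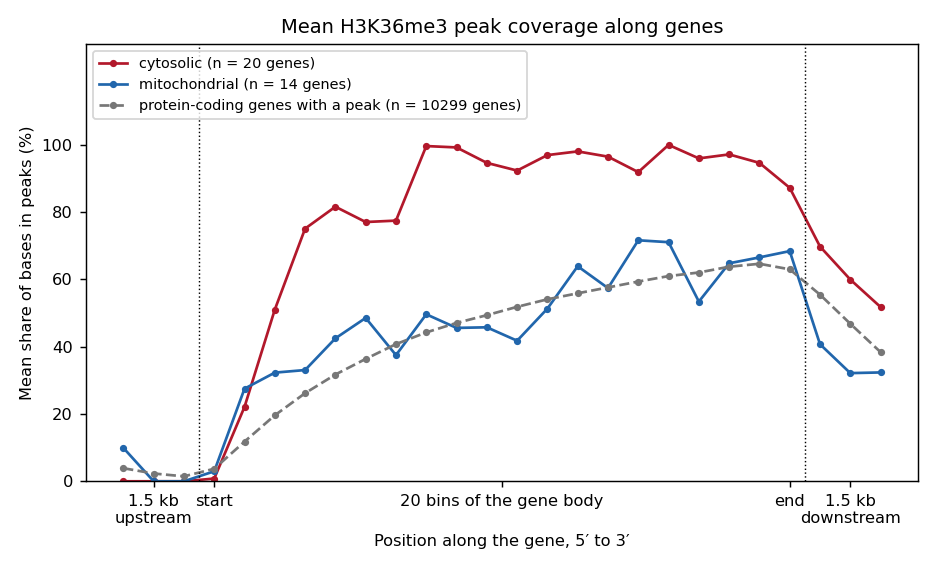
Mean share of bases inside H3K36me3 peaks (%) in 20 bins of the gene body and 3 bins of 500 bp on either side, 5′ to 3′, for cytosolic synthetase genes (red, n = 20), mitochondrial synthetase genes (blue, n = 14) and protein-coding genes with a peak (grey dashes, n = 10299), all of at least 5000 bp. The red curve passes 50% in bin 3 and dips no lower than 77.1% between bin 5 and the gene end, while the blue and grey curves pass 50% in bins 12 and 11.

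Exons were covered more than introns in 13 of 20 cytosolic and 13 of 15 mitochondrial genes, against 73.0% of protein-coding genes with a peak and an intron. Median exon and intron shares were 89.9% and 80.9% in the cytosolic genes and 63.2% and 50.3% in the mitochondrial genes. The mitochondrial exon median is over 16 genes, with Mars2 at 0%, and the intron median over 15, because Mars2 has no intron. By these medians, cytosolic introns were covered more than mitochondrial exons. By enzyme class, the covered share had medians of 84.4% for class I and 80.1% for class II among the cytosolic genes other than Eprs, which holds a part of each class. Among the mitochondrial genes the medians were 53.7% for class I and 44.1% for class II, so the gap between compartments was larger than the gap between classes.

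The gene named for a peak on a synthetase body was not always a synthetase. A peak was credited to 19 of 20 cytosolic and 13 of 16 mitochondrial genes, where 45.4% of all protein-coding genes were credited with one. Of the 128 peaks on bodies, 93 were credited to a synthetase gene and 35 to another gene. The same split was not computed for peaks on all protein-coding genes, so it is not read as a trait of the synthetases. Sars, Wars2 and Yars2 had peaks on the body and were never named. Both Sars peaks, of 13153 bp (fold 3.48) and 3749 bp (fold 2.84), were credited to Gm22942, a small nucleolar RNA gene, although they covered 83.1% of Sars. The 7 Wars2 peaks were credited to Gm18982, Mir6481 and Gm42717. Of the 9 Farsb peaks, 5 were credited to the pseudogene Gm28995 and 1 to 4833412K13Rik. Conversely, 12 peaks credited to a synthetase gene lay off its body, among them 3 on Lyrm4 that were credited to Fars2, whose start adjoins that of Lyrm4.

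Other genes that act in tRNA charging were set beside the synthetases. All 16 of these genes had a peak, 9 were covered over at least 50%, and their median covered share was 56.3%, between those of the cytosolic and the mitochondrial synthetases. Mtfmt, which formylates the mitochondrial initiator tRNA, was covered over 89.0%. Trnt1, which adds the CCA end that a tRNA needs before charging, was covered over 82.9%. Less than 50% of the Trnt1 peak of 24707 bp lay on Trnt1, which overlaps Crbn, and outside Crbn the share was 79.3%. The scaffold genes of the multi-synthetase complex spread widely, with Eef1e1 covered over 81.6%, Aimp1 over 66.3% and Aimp2 over 41.3%. Less than 50% of the Aimp2 peak of 33151 bp lay on Aimp2, which overlaps Eif2ak1, and outside Eif2ak1 the share was 25.1%. Tarsl2, a further cytosolic threonine enzyme gene, was covered over 23.4%, beside 86.0% for Tars. Gatb, of the amidotransferase that makes mitochondrial glutaminyl-tRNA, was covered over 17.9%, and Dtd1, which removes wrongly attached D-amino acids, over 0.931%.

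Among translation genes, the cytosolic synthetases, at a median of 82.2%, stood above the genes with Eif symbols. The place of the mitochondrial synthetases beside the mitochondrial ribosomal proteins depended on which genes were kept. Genes with symbols of Eif followed by a digit had a peak in 52 of 55 cases and a median covered share of 69.3%. That list was made by symbol and is not limited to initiation factors, as it takes in genes such as Eif2ak1. Mitochondrial ribosomal protein genes (Mrpl and Mrps) had a peak in 73 of 78 cases and a median of 56.6%, and were shorter, with a median length of 7899.5 bp. The mitochondrial synthetases had a median of 48.9% over all 16 genes, 56.0% without Fars2 and Mars2 and 64.1% in the cytosolic length range. These differences between lists were not tested.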

How the data were processed

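H3K36me3 ChIP-seq of primary KCs was taken from the deposited peak table of 1 ChIP library. The input library was not analysed here. By the authors' methods and processing notes, trimmed reads were mapped on the GRCm38 build by Bowtie2 2.2.6, MACS2 2.1.1 made the peak calls at a stated P cut-off of 0.01, and ChIPseeker named a gene for each. The smallest values in the table were 2.76 for −log10 P and 1.31 for −log10 q, so the listed peaks meet a stricter limit than the stated one, and regions between these limits would appear as uncovered. Use of the input as control, and read depth, are not given in the sources used here. In the deposited table, fold enrichment is a ratio over estimated background, P and q are given as −log10 values, and the deposited score of distance to a transcript start is in bp. A peak gives its width but no strength along it, so a wide peak counts in full wherever it covers a gene. Peaks that run over neighbouring genes were kept and counted by their overlapping bases.

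Peaks were intersected with GENCODE vM21 genes (minimum overlap 1 bp) in Python 3.11.15 with NumPy 2.4.6, pandas 2.3.3 and SciPy 1.17.1, and the steps were tested on simulated data. All 36 symbols were found in the annotation. Profiles used 20 body bins and genes of at least 5000 bp. Every member is accounted for. Peaks are described further for the 5 most and 5 least covered members of each compartment, members with no peak and members never named by the annotation, and where a gene had more than 5 peaks their number and ranges are given. Members and gene lists were chosen with earlier results of these data known. With 1 library no test was made. Alternatives were stricter P or fold limits, merging of peaks, other rules for a gene's peaks, bases outside other genes, and width-weighted folds. A restriction to the cytosolic length range and the removal of Fars2, alone or with Mars2, were added after seeing the data.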

Additional observations from a re-analysis of the deposited data

How the results depend on the processing

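The order of the groups did not change under any alternative run. With peaks of P below 1e-05 only, the median covered share was 74.6% for cytosolic and 0% for mitochondrial genes, and the marked genes numbered 18 cytosolic and 4 mitochondrial, against 20 and 15 in the report. With folds of at least 3 the medians were 77.6% for cytosolic and 39.4% for mitochondrial genes, and over bases outside other protein-coding genes 83.2% and 49.0%. Without Kars and Gars, which serve both compartments, the cytosolic median was 82.7%. Among mitochondrial genes in the cytosolic length range the median was 64.1%, without Fars2 and Mars2 it was 56.0%, and the share of all mitochondrial body bases in peaks was 43.2% without Fars2, against 21.3% with it, all chosen after seeing the data. The width-weighted mean fold had medians of 3.46 for cytosolic and 3.10 for mitochondrial genes. Merging peaks across 1000 bp joined none on these bodies, so the medians stayed at 82.2% and 48.9%. This alternative could therefore not have changed the order of the groups. Counts of marked genes under the other rules were 19 or 20 cytosolic and 13 to 15 mitochondrial. No paired analysis of samples was possible because 1 library was used, and pairs were of genes for the same amino acid. Peak calls depend on a depth that was not given, so an uncovered base is one without a called peak, not one without the mark.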
